A study of Mus musculus with 8 samples.

Results

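The genes described here write, copy or remove DNA methylation. They are the maintenance pair Dnmt1 and Uhrf1, the de novo genes Dnmt3a, Dnmt3b and Dnmt3l, the oxidases Tet1, Tet2 and Tet3, and the glycosylase Tdg. The list has 9 genes, and a gene was measured where a probe set of the array carried its symbol and no other. That held for 8 of the 9, among 19938 genes measured in all, and where a gene had several such probe sets the brightest was used. Each probe set that named Tdg also named a related pseudogene, so Tdg is given only from a deposited workbook of the same arrays. There it rests on 5 exon probe sets, and whether these also match the pseudogene was not tested.

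All samples came from CGR8, a feeder-independent line of mouse embryonic stem cells (ESCs), with C57BL/6 given as background strain and 129P2/OlaHsd as donor strain. Wild-type (WT) cells were compared with PML KD cells, in which a short hairpin RNA against the promyelocytic leukaemia gene Pml was delivered by a pLKO.1 lentivirus and kept by puromycin selection. RNA came from undifferentiated ESCs in serum and leukaemia inhibitory factor (day 0) and from day 4 embryoid bodies (EBs), which form from hanging drops without that factor. Affymetrix arrays measured each of the 4 groups on 2 arrays, and values are log2 signals with fitted standard errors (SE). The labels do not say whether the WT cells carried the empty vector, whether the PML KD line was 1 clone, or whether a group's 2 arrays used separate cultures, so p-values measure the spread between these arrays, which may be technical.

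DNA methylation at CpG sites is copied after replication by DNMT1, which UHRF1 brings to newly replicated DNA. DNMT3A and DNMT3B set new methyl groups, and DNMT3L, which has no catalytic activity of its own, stimulates them. The TET enzymes oxidise methylcytosine, and TDG cuts out the oxidised bases so that repair restores cytosine. Mouse ESCs express Dnmt3l, Tet1 and Tet2, and de novo methylation rises as they leave the naive state.

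Pml, the gene targeted by the hairpin, averaged 11.69 ± 0.01 (SD, n = 2) in WT and 11.09 ± 0.02 in PML KD ESCs, a fall of 1.52-fold (adjusted p = 0.000317). At day 4 it averaged 10.86 ± 0.03 in WT and 10.61 ± 0.10 in PML KD EBs (adjusted p = 0.0451), and no fit with 1 of the 8 arrays removed kept that call, with adjusted p up to 0.243. The PML KD ESC arrays stood apart in transcripts of the Y chromosome: the summed signal of Eif2s3y, Uty and Kdm5d was 7.05 to 7.08 there and 10.56 to 10.87 on the other 6 arrays. The gap lay in Eif2s3y and Uty (for Uty 5.40 and 5.77, against 9.03 to 9.38), while Kdm5d was 5.42 to 5.85 on all arrays. Xist, of the X chromosome, was 7.37 and 7.60 there and 6.12 to 7.08 on the others. These 2 arrays are compared in every comparison except PML KD against WT at day 4 and the time course of WT, which are also given without them where a call changed. Their part in the day 0 results, the time course of PML KD and the differences between changes was not tested. The PML KD EB arrays had Uty at 9.14 and 9.03, so in PML KD the day cannot be told apart from this difference. The day 0 difference between the lines also varied by chromosome. Among genes above the median signal, its median on chromosome 8 (507 genes) lay 0.254 above that of all other chromosomes. On chromosome 14 (309 genes) it lay 0.184 above. On the further chromosomes examined, among them those of the 9 listed genes, this value was -0.083 to 0.038. The cause was not tested. Signal level also moved with the groups. Among the brightest 10% of genes, to which Dnmt1, Dnmt3b, Dnmt3l, Uhrf1 and Tet1 belong, the median difference between PML KD and WT was -0.25 at day 0 and 0.14 at day 4, against 0.09 and -0.02 over all genes. In this brightest 10%, 25.9% rose and 52.6% fell at day 0, and 38.9% rose and 13.6% fell at day 4. Dnmt3a and Tet2 lay in the 10% below, with medians of -0.26 and 0.11, and Tet3 lay nearer the middle of the range. Quantile normalization moved the all-gene median at day 0 from 0.09 to -0.06 and a median shift moved it to -0.14, so differences of that size have no settled direction.

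**Figure D1:**
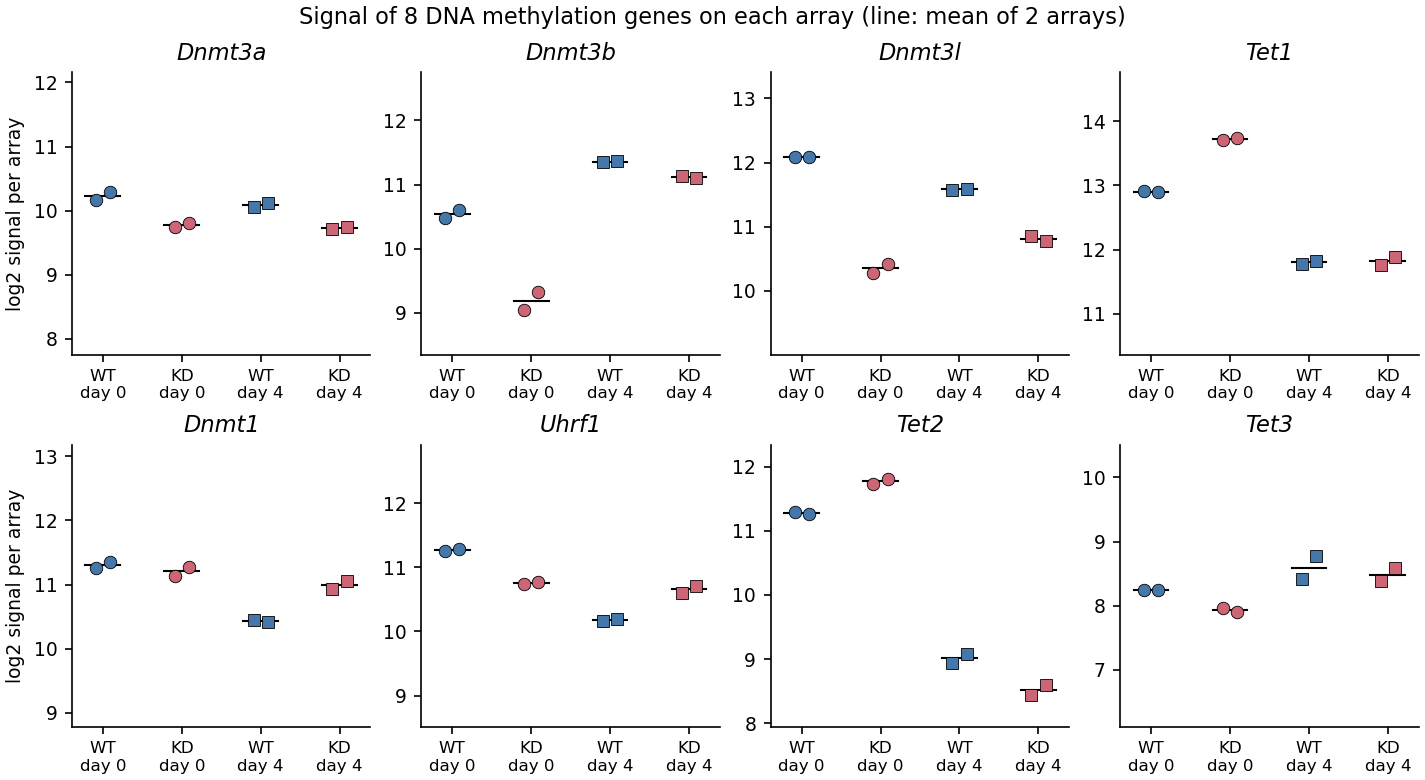
Log2 signal on each array (y axis; every panel spans the same range) of 8 DNA methylation genes in WT (blue) and PML KD (red) cells at day 0 (circles) and day 4 (squares); points are arrays and lines are means of 2 arrays. Dnmt3b and Dnmt3l are lowest and Tet1 and Tet2 highest in PML KD ESCs, and Dnmt1 and Uhrf1 are lowest in WT EBs.

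In PML KD ESCs the 3 genes of de novo methylation and Uhrf1 were lower than in WT ESCs, and Tet1 and Tet2 were higher. Of the 8 measured genes, 6 passed the test (adjusted p under 0.05), 2 of them higher and 4 lower, where 52.3% of all genes passed, 27.5% higher and 24.9% lower. The arrays of the groups did not overlap for 7 of the 8, against 76.7% of all genes. The share that passed is therefore not far from that of the whole array, and what sets some of these genes apart is size. Dnmt3b and Dnmt3l changed by at least 2-fold, as did 4.62% of all genes, and their falls lay at percentile 1 and 0.3 of the differences of all genes.

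Dnmt3l, the stimulating cofactor, showed the largest difference between the lines among the 8 genes in the main values. Its signal was 12.09 and 12.09 on the WT ESC arrays and 10.28 and 10.42 on the PML KD ESC arrays, then 11.57 and 11.59 on the WT EB arrays and 10.85 and 10.77 on the PML KD EB arrays. The order was WT ESC, WT EB, PML KD EB and PML KD ESC, with no overlap between any groups. At day 0 it fell by 1.74 ± 0.08 in PML KD, or 3.33-fold (adjusted p = 4.79e-06), with a difference of -1.96 to -1.33 under the scalings tried. At day 4 it fell by 0.78 ± 0.08, or 1.71-fold (adjusted p = 0.000294), and the fall was 0.66 to 0.92 under the scalings tried. In the exon workbook as deposited Dnmt3b differed slightly more than Dnmt3l at day 0 (-1.60 against -1.55).

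Dnmt3l differed between the days in opposite directions in the 2 lines, though the PML KD ESC and EB arrays also differed in Y transcripts. From day 0 to day 4 it fell by 0.51 ± 0.08 in WT (adjusted p = 0.000777) and rose by 0.45 ± 0.08 in PML KD (adjusted p = 0.00151), and the difference between these changes was 0.96 ± 0.11 (adjusted p = 0.00021), or 0.44 (adjusted p = 0.0153) to 1.30 under the scalings tried. The rise in PML KD was absent in the exon workbook after quantile normalization, where it was 0.00 (adjusted p = 0.998).

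Dnmt3b, the de novo methyltransferase of early development, was 10.48 and 10.61 in WT ESCs against 9.05 and 9.32 in PML KD ESCs. In EBs it was 11.35 and 11.36 with WT and 11.13 and 11.10 with PML KD. The PML KD ESC arrays were the lowest by over 1 log2 unit, and the EB arrays of both lines were the highest. Dnmt3b fell by 1.36 ± 0.10 in PML KD ESCs, or 2.56-fold (adjusted p = 2.35e-05). In EBs the difference was -0.24 ± 0.10 and did not pass (adjusted p = 0.109), although it passed after quantile normalization at -0.30 (adjusted p = 0.0436) and without both PML KD ESC arrays at -0.24 (adjusted p = 0.0497).

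Dnmt3b was higher at day 4 than at day 0 in both lines. The rise was 0.81 ± 0.10 in WT (adjusted p = 0.000225) and 1.93 ± 0.10, or 3.80-fold, in PML KD (adjusted p = 2e-06). The change in PML KD was larger by 1.11 ± 0.14 (adjusted p = 0.000372). The Dnmt3b rise was larger in PML KD in every alternative run, between 0.77 and 1.45.

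Dnmt3a, the de novo enzyme that persists in later tissues, was 10.16 and 10.29 in WT ESCs, 9.75 and 9.81 in PML KD ESCs, 10.06 and 10.12 in EBs of WT and 9.72 and 9.75 in EBs of PML KD. Every PML KD array was below every WT array. It fell in PML KD by 0.45 ± 0.08 at day 0 (adjusted p = 0.0016) and by 0.35 ± 0.08 at day 4 (adjusted p = 0.0107). The day 4 call was lost without WT EB replicate 2 (adjusted p = 0.0582) or PML KD EB replicate 1 (adjusted p = 0.0638) and after a median shift (adjusted p = 0.0503). The day 0 call was lost in the exon workbook after quantile normalization (-0.29, adjusted p = 0.0526). Dnmt3a did not pass over time in WT (-0.14 ± 0.08, adjusted p = 0.167) or PML KD (-0.04 ± 0.08, adjusted p = 0.677), and the difference between these changes was 0.10 ± 0.11 (adjusted p = 0.479). After a median shift the fall in WT passed (-0.35, adjusted p = 0.00546), as did the difference between the changes (0.44, adjusted p = 0.0106). Quantile normalization gave 0.03 and -0.13 for the same values, so neither has a settled direction.

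The promoter sequences of Dnmt3b and Tet1 are shown because these genes moved in opposite directions between the lines at day 0 and over time, and because CpG density is the feature that DNA methylation acts on. The stretches are RefSeq sequence of build GRCm38.p6, from upstream of an annotated start and outside the gene itself, with each CpG in capitals. Which start these cells use was not measured.
Dnmt3b, chr2:153649199-153649410, plus strand: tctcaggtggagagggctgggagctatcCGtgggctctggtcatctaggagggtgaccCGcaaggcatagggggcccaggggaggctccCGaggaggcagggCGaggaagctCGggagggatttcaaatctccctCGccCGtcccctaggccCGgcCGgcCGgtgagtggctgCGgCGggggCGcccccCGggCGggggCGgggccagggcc
Tet1, chr10:62887470-62887574, minus strand: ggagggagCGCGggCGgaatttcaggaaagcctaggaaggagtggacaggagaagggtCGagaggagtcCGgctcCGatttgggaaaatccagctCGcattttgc
The whole 250-base window upstream of the start held 21 CpGs for Dnmt3b and 15 for Tet1, where the median over 32851 such windows of the mouse genome was 6. The windows of Dnmt3l held fewer, with 5, 4 and 3 CpGs before its 3 annotated starts, and that of Tet2 held 51, more than 99.9% of windows. All windows of Dnmt3l were under this median, while that of Dnmt3b, which fell with it at day 0, was above it. No methylation was measured in these samples.

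**Figure D2:**
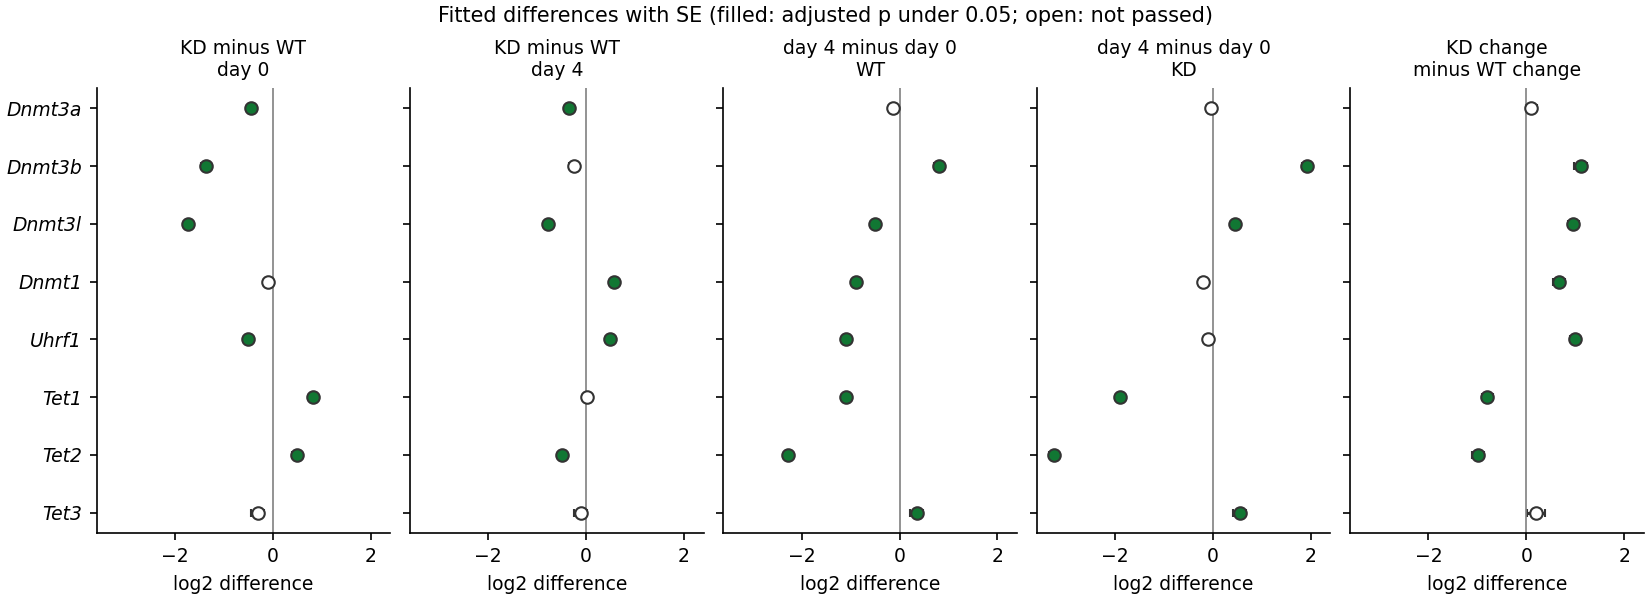
Fitted log2 differences (x axis) of 8 DNA methylation genes in 5 comparisons, with SE bars; filled points passed at adjusted p under 0.05 and open points did not. Dnmt3l and Dnmt3b lie furthest left for PML KD minus WT at day 0, and Tet2 lies furthest left over time in both lines.

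Tet1, an oxidase abundant in ESCs, was higher in PML KD ESCs, and its levels in the EBs of the lines overlapped. Its signal was 12.91 and 12.90 in WT ESCs, 13.71 and 13.74 in PML KD ESCs, 11.78 and 11.83 in EBs of WT and 11.76 and 11.89 in EBs of PML KD. The ESC groups were apart and the EB groups overlapped. Tet1 rose by 0.82 ± 0.08, or 1.77-fold, in PML KD ESCs (adjusted p = 5.84e-05), and the EB difference was 0.02 ± 0.08 (adjusted p = 0.853).

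Tet1 was lower at day 4 than at day 0, by 1.10 ± 0.08 in WT (adjusted p = 7.99e-06) and by 1.90 ± 0.08, or 3.74-fold, in PML KD (adjusted p = 4.74e-07). The difference between the changes was -0.80 ± 0.11 (adjusted p = 0.000452). Of the 3 probe sets that name Tet1 alone, all gave the day 0 rise, between 0.79 and 0.83. They disagreed at day 4, where probe set 10369688 was higher in PML KD by 0.61 (adjusted p = 0.000497), probe set 10369690 gave 0.16 (adjusted p = 0.152) and the probe set used, 10369702, gave 0.02. On the array itself, probe set 10369688 lay 0.86 to 0.91 under the used one in all ESC samples and 0.79 and 0.94 under it in PML KD EBs, but 1.46 and 1.45 under it in WT EBs. The WT EB arrays are therefore the ones in which the Tet1 probe sets changed unequally.

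**Figure D3:**
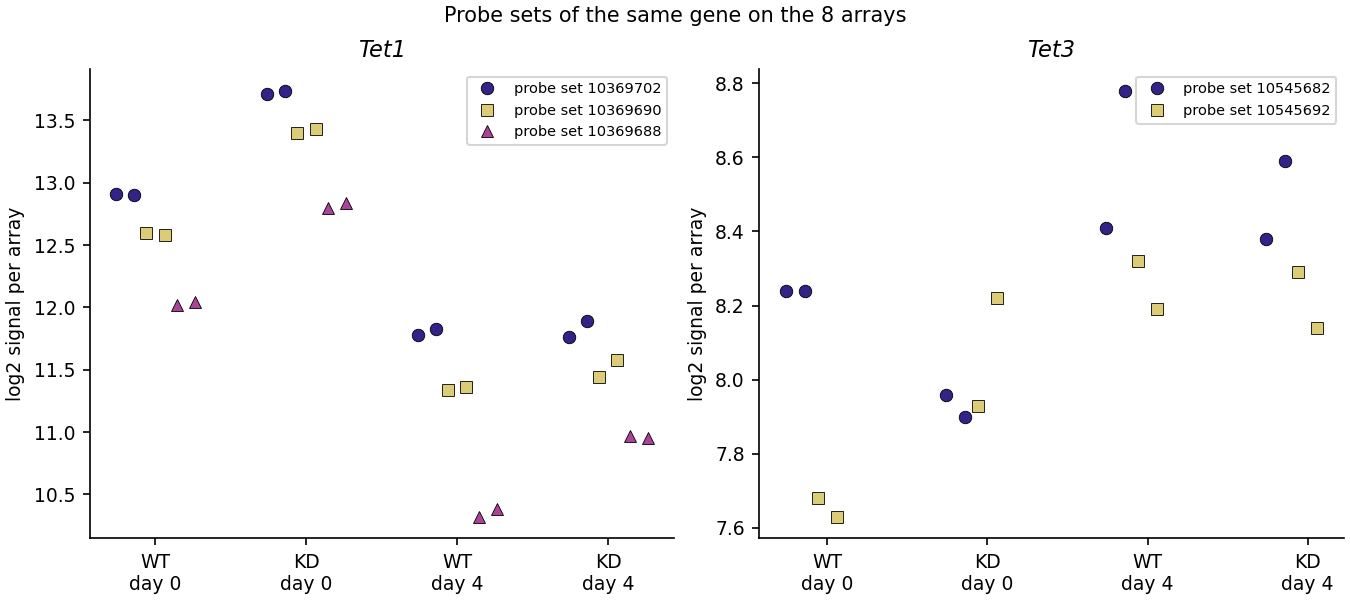
Log2 signal (y axis) of the 3 probe sets of Tet1 and the 2 of Tet3 on each array of the 4 groups (x axis); each point is an array. The Tet1 probe sets run in parallel except in WT EBs, where probe set 10369688 is lowest at 10.32 and 10.38, and the distance between the Tet3 probe sets varies among arrays, also within a group.

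Tet2, the second oxidase of ESCs, showed the steepest fall from day 0 to day 4 among the 8 genes. It was 11.29 and 11.26 in WT ESCs, 11.73 and 11.81 in PML KD ESCs, 8.94 and 9.08 in EBs of WT and 8.44 and 8.60 in EBs of PML KD. The order of the lines was reversed between the days, with PML KD above WT in ESCs and below WT in EBs. Tet2 rose by 0.49 ± 0.09 in PML KD ESCs (adjusted p = 0.0019) and fell by 0.49 ± 0.09 in PML KD EBs (adjusted p = 0.00416). Over time it fell 4.82-fold in WT (-2.27 ± 0.09, adjusted p = 4.36e-07) and 9.51-fold in PML KD (-3.25 ± 0.09, adjusted p = 1.16e-07). The difference between these changes was -0.98 ± 0.12 (adjusted p = 0.00034), and it lay between -1.26 and -0.64 in all alternatives.

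Tet3, the oxidase known for its role in the zygote, had probe sets that differed in sign between the lines at day 0. Its signal was 8.24 and 8.24 in WT ESCs, 7.96 and 7.90 in PML KD ESCs, 8.41 and 8.78 in EBs of WT and 8.38 and 8.59 in EBs of PML KD. It did not pass between the lines at day 0 (-0.31 ± 0.13, adjusted p = 0.0651) or day 4 (-0.11 ± 0.13, adjusted p = 0.552), and its other probe set gave the opposite sign at day 0 (0.42, adjusted p = 0.0128). The day 0 difference of the probe set used passed as lower after quantile normalization (-0.43, adjusted p = 0.0224) and a median shift (-0.54, adjusted p = 0.00572). It rose by 0.55 ± 0.13 over time in PML KD (adjusted p = 0.00623), a call lost without PML KD EB replicate 2 (adjusted p = 0.0505). The rise in WT was 0.35 ± 0.13 (adjusted p = 0.044), and 0.17 without WT EB replicate 2 (adjusted p = 0.261); leaving out any array other than WT EB replicate 1 ended this call, as did leaving out both PML KD ESC arrays (adjusted p = 0.0619). The difference between the changes was 0.20 ± 0.18 (adjusted p = 0.365), and 0.54 after a median shift (adjusted p = 0.0284). The other Tet3 probe set gave -0.46 for this difference (adjusted p = 0.0376), with 0.60 over time in WT (adjusted p = 0.00218) and 0.14 in PML KD (adjusted p = 0.32), so the Tet3 differences have no settled direction between the lines.

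Tdg, which acts after the TET enzymes, was measured in the exon workbook, where all values come from 1 gene-level summary. It was 10.82 and 10.74 in WT ESCs, 9.86 and 9.99 in PML KD ESCs, 10.31 and 10.34 in EBs of WT and 10.75 and 10.71 in EBs of PML KD. The day 0 and day 4 arrays of the workbook lie on different scales, with mean signals of 8.29 to 8.30 and 8.06 to 8.08, so the days are compared only after quantile normalization. In the workbook as deposited Tdg fell by 0.86 ± 0.08 in PML KD ESCs (adjusted p = 0.000653, with 45.6% of the workbook's 24408 genes passing). It rose by 0.41 ± 0.08 in PML KD EBs (adjusted p = 0.0163, with 25.7% passing), and its difference between the days' comparisons was 1.26 ± 0.12 (adjusted p = 0.000621, with 44.8% passing). After quantile normalization it rose over time in PML KD by 0.81 ± 0.08 (adjusted p = 0.000324, with 52.3% passing), and in WT the change was -0.14 ± 0.08 (adjusted p = 0.176, with 51.3% passing). The difference between these changes was then 0.95 (adjusted p = 0.00135, with 39.7% passing). The lines then differed by -0.64 at day 0 (adjusted p = 0.00136, with 42.1% passing) and by 0.31 at day 4 (adjusted p = 0.0314, with 23.9% passing).

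At day 4 the maintenance pair was higher in PML KD and the de novo genes were lower or not different. Of the 8 measured genes, 5 passed, 2 higher and 3 lower, where 28.6% of all genes passed, 16.8% higher and 11.8% lower. The arrays did not overlap for 6, against 65.2% of all genes. None of the 8 changed by 2-fold, as did 1.74% of all genes. The median over the 8 was -0.18 at day 4 and -0.38 at day 0, against -0.02 and 0.09 over all genes.

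Dnmt1, the maintenance methyltransferase, was 11.26 and 11.35 in WT ESCs, 11.14 and 11.27 in PML KD ESCs, 10.44 and 10.41 in EBs of WT and 10.93 and 11.06 in EBs of PML KD. The ESC groups overlapped and the WT EB arrays were lowest. The day 0 difference was -0.10 ± 0.08 (adjusted p = 0.352) and changed sign with scaling, from -0.32 after a median shift (adjusted p = 0.0122) to 0.11 in the exon workbook after quantile normalization (adjusted p = 0.278). At day 4 Dnmt1 was higher in PML KD by 0.57 ± 0.08, or 1.48-fold (adjusted p = 0.00167). It fell over time by 0.88 ± 0.08 in WT (adjusted p = 4.93e-05), and the change in PML KD was -0.21 ± 0.08 (adjusted p = 0.0624; -0.26 and adjusted p = 0.027 after quantile normalization). The difference between these changes was 0.67 ± 0.12 (adjusted p = 0.00205), or 0.35 (adjusted p = 0.0442) to 1.01 under the scalings tried.

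Uhrf1, whose protein recognises half-methylated CpGs, was 11.25 and 11.28 in WT ESCs, 10.74 and 10.77 in PML KD ESCs, 10.16 and 10.20 in EBs of WT and 10.60 and 10.71 in EBs of PML KD. No groups overlapped, and the PML KD arrays of both days lay between the WT ESC and WT EB arrays. Uhrf1 fell by 0.51 ± 0.07 in PML KD ESCs (adjusted p = 0.000629) and rose by 0.48 ± 0.07 in PML KD EBs (adjusted p = 0.00202). It fell over time by 1.09 ± 0.07, or 2.13-fold, in WT (adjusted p = 7.79e-06), and the change in PML KD was -0.10 ± 0.07 (adjusted p = 0.289). The difference between these changes was 0.99 ± 0.10 (adjusted p = 0.000135).

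Dnmt1 and Uhrf1 are known to be transcribed with replication genes, and the list of 23 measured S-phase genes was described beside them. Of the 23, 16 fell and 3 rose in PML KD ESCs, with a median difference of -0.50. In PML KD EBs, 18 rose and 1 fell, with a median of 0.54. Of all genes 24.9% fell at day 0 and 16.8% rose at day 4, and of the brightest 10% these shares were 52.6% and 38.9%. The ribonucleotide reductase genes Rrm2 and Rrm1 rose by 0.99 ± 0.08 and 0.94 ± 0.09 at day 4, and the clamp loader gene Rfc4 fell by 0.99 ± 0.08 at day 0 and rose by 0.81 ± 0.08 at day 4. Over time in WT 20 fell and 0 rose (limma; median -0.81), the helicase gene Mcm6 by 1.45 ± 0.07, and in PML KD 10 rose and 4 fell (median 0.13). The difference between the changes was positive and passed for 18, with a median of 1.11. Of all genes 25.6% fell in WT, 24.3% rose and 25.2% fell in PML KD, and 25.2% passed as positive in the difference. Of the brightest 10% these shares were 56%, 43.8%, 30.2% and 55%. Under the 4 scalings of the main values the list's median stayed between -0.73 and -0.29 at day 0 and between 0.43 and 0.65 at day 4. The summed signal of the list was 15.60 on both WT ESC arrays, 15.19 to 15.25 in PML KD ESCs, 14.74 to 14.76 in WT EBs and 15.29 to 15.31 in PML KD EBs. The part of this list's shift in the values of Dnmt1 and Uhrf1 was not tested.

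**Figure D4:**
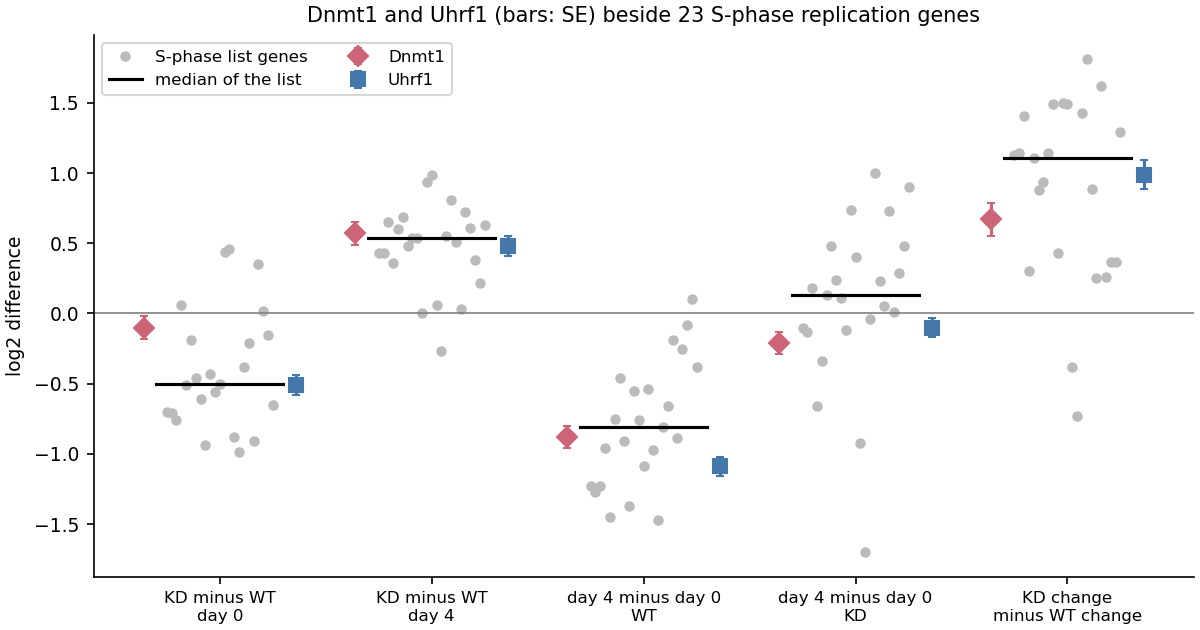
Log2 differences (y axis) of Dnmt1 (red diamonds) and Uhrf1 (blue squares), with SE bars, beside 23 S-phase replication genes (grey points; black line, their median) in 5 comparisons (x axis). The list's median is -0.50 at day 0 and 0.54 at day 4, and Dnmt1 lies near 0 at day 0 and with the list at day 4.

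The upstream sequences of both maintenance genes were searched for the E2F forms TTTCCCGC, TTTGGCGC, TTTCGCGC and TTTGCCGC on both strands, since E2F factors are known regulators of S-phase genes. Any of these forms was present in 1.86% of the 32851 windows. A window of Dnmt1 and a window of Uhrf1 held a match, and no window of the other members did. Both windows lay before an annotated start but inside the annotated span of the gene. The windows of these genes outside that span held no match. The matching windows held 26 and 30 CpGs, where the median window held 6. Each form contains a CpG, so the share over all windows is not matched for CpG content. Each match is shown with its flanks in the direction of the gene, with the match in capitals (RefSeq, GRCm38.p6).
Dnmt1, chr9:20952825-20952852, minus strand: gtttccgcgcGCGCGAAAaagccggggt
Uhrf1, chr17:56304118-56304145, plus strand: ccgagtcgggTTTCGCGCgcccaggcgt
A match describes these letters, and binding of a factor was not measured.

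Over time in WT, 7 of the 8 measured genes passed, 2 higher and 5 lower, where 49.9% of all genes passed, 24.3% higher and 25.6% lower. The arrays did not overlap for all 8, against 75% of all genes. In PML KD, 5 passed, 3 higher and 2 lower, where 49.6% of all genes passed, 24.3% higher and 25.2% lower. The arrays did not overlap for 7, against 74.5%. Of the brightest 10% of genes, 19.8% rose and 56% fell over time in WT, and 43.8% rose and 30.2% fell in PML KD. In the 10% below, 19.9% rose and 50.9% fell in WT, and 42.4% rose and 27.4% fell in PML KD. At least 2-fold changes were seen for Uhrf1, Tet1 and Tet2 in WT, as for 7.39% of all genes, and for Dnmt3b, Tet1 and Tet2 in PML KD, as for 7.96%. The difference between the changes passed for 6 of the 8 genes, where 50.6% of all genes passed, 25.2% positive and 25.4% negative. Of the brightest 10% of genes, 55% passed as positive and 19.6% as negative. The difference was positive for Dnmt1, Uhrf1, Dnmt3b and Dnmt3l and negative for Tet1 and Tet2. These time courses share their arrays with the comparisons of the lines, so the same arrays underlie both sets of values.

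The EBs hold several cell types, and the cell type markers moved with the groups. Over all genes 27.5% rose and 24.9% fell at day 0, and 16.8% rose and 11.8% fell at day 4. Of the brightest 10% of genes, 52.6% fell at day 0 and 38.9% rose at day 4. The 14 visceral endoderm markers, genes of the outer layer of EBs such as Afp and Ttr, all fell in PML KD EBs, with a median of -1.16 (12 to 14 fell under the 4 scalings of the main values). Their summed signal was 11.48 to 12.02 in ESCs, 15.90 to 15.92 in WT EBs and 14.42 to 14.47 in PML KD EBs. Of 14 pluripotency markers 6 rose and 4 fell in PML KD EBs (median 0.09). Nanog rose by 1.15 ± 0.07, while Pou5f1, Klf4, Klf5 and Tbx3 fell. The calls of Pou5f1 and Klf4 were lost after a median shift. The summed signal of the 14 markers was 15.18 to 15.19 in WT and 15.38 to 15.40 in PML KD. In bulk samples fewer cells of a type and less RNA per cell cannot be told apart, and the part of these shifts in the day 4 values of Dnmt1, Uhrf1, Dnmt3l and Tet2 was not tested. In ESCs 9 of the pluripotency markers fell and Tdgf1 rose, and their summed signal was 16.65 to 16.68 in WT and 16.37 to 16.41 in PML KD. Of 8 epiblast markers 2 rose and 3 fell in PML KD ESCs. Of 9 fibroblast markers 5 rose and 0 fell at day 0 (limma; summed signal 10.50 to 10.52 in WT and 10.77 to 10.89 in PML KD), and 1 to 3 rose under the 4 scalings of the main values. In EBs 4 rose and Lum fell (summed signal 10.92 to 10.94 in WT and 11.51 to 11.61 in PML KD). The collagen gene Col1a2 reached 9.93 and 10.11 in EBs of PML KD against 7.92 and 7.99 for WT, and the part of these markers in the values of the methylation genes was not tested.

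Of 8 measured partners of the maintenance pair 4 fell and 0 rose in PML KD ESCs (limma), where 24.9% of all genes and 52.6% of the brightest 10% fell. They were the chromatin factor Cdca7 (-0.59 ± 0.08), the demethylase Kdm1a, the deubiquitinase Usp7, and the sliding clamp Pcna (-0.22 ± 0.07, adjusted p = 0.0355), whose call was lost after quantile normalization (adjusted p = 0.214) and without WT ESC replicate 1 or 2 or PML KD ESC replicate 1 (adjusted p = 0.112 to 0.133). In EBs 3 rose and 0 fell (limma): Dppa3, an inhibitor of UHRF1, by 0.78 ± 0.10, Pcna by 0.52 ± 0.07 and the ligase Lig1 by 0.30 ± 0.07. In the same comparison 16.8% of all genes and 38.9% of the brightest 10% rose. The Lig1 call was lost after quantile normalization (adjusted p = 0.0548) and without WT EB replicate 2 or either PML KD EB array (adjusted p = 0.0558 to 0.0871). In the exon workbook after quantile normalization the calls of Kdm1a (adjusted p = 0.257) and Pcna (adjusted p = 0.0946) at day 0 and of Dppa3 (adjusted p = 0.17) and Lig1 (adjusted p = 0.415) at day 4 were lost. In the same values Uhrf2, a relative of Uhrf1, passed as higher at day 0 (0.44, adjusted p = 0.0101) and lower at day 4 (-0.38, adjusted p = 0.0301), where the main values were 0.00 and 0.02. The list's median was -0.18 at day 0 and 0.17 at day 4. Hells, a chromatin remodeller that works with Cdca7, did not pass at day 4 (-0.18 ± 0.08, adjusted p = 0.116), but passed as lower after quantile normalization (-0.24, adjusted p = 0.0348).

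Of 11 measured genes that guide or oppose de novo methylation, 4 rose and 5 fell in PML KD ESCs (median -0.21). In PML KD EBs 1 rose and 3 fell (median 0.06). Over all genes 27.5% rose and 24.9% fell at day 0, and 16.8% rose and 11.8% fell at day 4. Of the brightest 10% of genes, 52.6% fell at day 0. After a median shift 1 of the 11 genes rose and 6 fell at day 0 (median -0.43), with the rises of Prdm14, Nsd1 and Zfp57 lost. Quantile normalization gave 5 and 3 (median -0.06). At day 0 E2f6, a repressor that marks germ line genes for methylation, fell by 0.81 ± 0.10, its partner Pcgf6 fell by 0.55 ± 0.09, and Mga of the same complex rose by 0.53 ± 0.07. At day 4 Prdm14, a repressor of de novo methyltransferase genes in naive mouse ESCs, rose by 1.03 ± 0.11 (7.07 in WT and 8.11 in PML KD), while the imprint protector Zfp57 fell by 0.42 ± 0.08. Both had fallen with differentiation, with differences of -2.30 ± 0.11 for Prdm14 and -1.96 ± 0.08 for Zfp57 in WT.

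Of 20 measured genes that remove oxidised bases or supply TET enzymes, 5 rose and 9 fell in PML KD ESCs (median -0.15). In EBs 4 rose and 3 fell (median 0.01). Over all genes 27.5% rose and 24.9% fell at day 0, and 16.8% rose and 11.8% fell at day 4. Of the brightest 10% of genes, 25.9% rose and 52.6% fell at day 0. The isocitrate dehydrogenases make the oxoglutarate that TET enzymes consume. Idh1 was 11.37 and 11.38 in WT ESCs, 9.49 and 9.64 in PML KD ESCs, 10.16 and 10.24 in EBs of WT and 10.28 and 10.11 in EBs of PML KD. It fell by 1.81 ± 0.09, or 3.51-fold, in PML KD ESCs (adjusted p = 6.04e-06), and the EB arrays of the lines overlapped. Idh2 fell by 1.00 ± 0.08 at day 0 (adjusted p = 3.36e-05) and rose by 0.76 ± 0.08 at day 4 (adjusted p = 0.000373). Ogt, the glycosyltransferase that binds TET proteins, rose by 0.82 ± 0.09 at day 0 and fell by 0.52 ± 0.09 at day 4 (adjusted p = 0.0031, and 0.0579 in the exon workbook after quantile normalization). Of the glycosylases related to Tdg in function, Neil2 rose by 1.11 ± 0.13 at day 0 (adjusted p = 0.000224), from 6.58 and 6.97 in WT to 7.92 and 7.84, and fell by 0.68 ± 0.13 at day 4 (adjusted p = 0.00625), a call lost when PML KD EB replicate 1 was left out (adjusted p = 0.0533). Neil3 rose by 1.08 ± 0.13 at day 0 (adjusted p = 0.00019), a call lost in the exon workbook after quantile normalization (0.45, adjusted p = 0.164). The list's other glycosylases did not rise at day 0. Neil1 was lower (-0.33, adjusted p = 0.0433, and -0.22 without WT ESC replicate 1). Smug1 (-0.12, adjusted p = 0.288) and Mbd4 (0.02, adjusted p = 0.849) did not pass, and Smug1 passed as lower after quantile normalization (-0.37, adjusted p = 0.00528).

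Of 12 measured methyl donor genes, 10 fell and 1 rose in PML KD ESCs, with a median of -0.49, where 24.9% of all genes and 52.6% of the brightest 10% fell. Under the 4 scalings of the main values 8 to 11 fell. The homocysteine methyltransferase Bhmt fell by 1.40 ± 0.12, spermidine synthase Srm by 0.78 ± 0.07 and the serine hydroxymethyltransferase Shmt2 by 0.81 ± 0.08. In EBs 5 rose and 2 fell (median 0.12), with Mtr, the methionine synthase, higher by 0.50 ± 0.09 and Mthfd2 lower by 0.66 ± 0.08. In the same comparison 16.8% of all genes and 38.9% of the brightest 10% rose, and 11.8% and 13.6% fell.

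**Figure D5:**
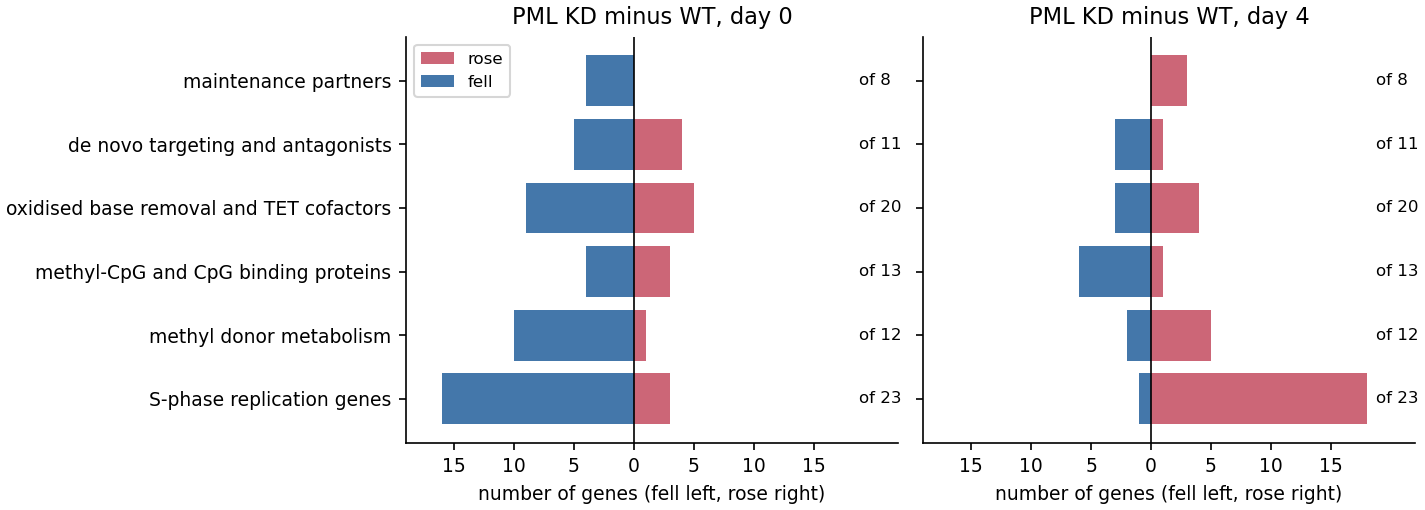
Number of genes (x axis) that fell (blue, left) or rose (red, right) between PML KD and WT in 6 lists of genes (y axis), with the number measured at the right; left panel day 0, right panel day 4. S-phase genes go from 16 fallen at day 0 to 18 risen at day 4, and methyl donor genes from 10 fallen to 5 risen.

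The genes with the pattern nearest to each member were found by the distance over the 8 arrays between values centred on each gene's own mean, for members whose group means spanned at least 1 log2 unit. For Dnmt3b they were the metallothionein Mt1 (distance 0.21), the factor Klf6 (0.34) and the ribosomal RNA gene n-R5s136 (0.37). For Dnmt3l the nearest were Eps8, Sat1 and Inpp5d, all at 0.52, the poorest match for its span. For Uhrf1 they were Ints3 (0.13), Satb1 (0.15) and Rcc2 (0.15). For Tet1 they were the calcium channel Cacna1a (0.23), Slc17a9 (0.27) and the Nodal co-receptor Tdgf1 (0.35). For Tet2 they were Cobl (0.40), Zfp57 (0.55) and Nfib (0.81). Dnmt1, Dnmt3a and Tet3 spanned 0.88, 0.49 and 0.67 and were not matched.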

How the data were processed

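Affymetrix arrays measured 4 groups of 2 arrays. The authors deposited 1 linear intensity per probe set (35556, of which 21789 have 1 gene symbol, 1621 several and 12146 are not listed in the platform annotation), and a workbook of log2 values summarised per gene over exon probe sets. The submitters' processing notes name the Transcriptome Analysis Console; the labels give no version, normalization or genome build. The array number limits the precision; array medians were 169 to 199 in intensity.

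The intensities were taken to log2 without further scaling, each gene kept its probe set of highest mean log2, and group means were fitted in limma 3.58.1 (R 4.3.3) with 4 residual degrees of freedom and Benjamini-Hochberg adjustment over 19938 genes. Tested on simulated data for the day 0 comparison, the fit called 55 of 66 genes changed by 1 log2 unit, 17 of 67 changed by 0.5 and 0 of 67 changed by 0.3, with 3 false calls. Only these genes were changed in the simulation, while 52.3% of all genes passed at day 0 in the data. The adjustment is therefore less strict in the data, and neither the shares called nor the false calls carry over. Members and lists were chosen with earlier results of these data known. Named list genes are among the 4 with the smallest adjusted p of a comparison, or did not pass. Afp and Ttr were picked as examples, and Neil1 was added with the other glycosylases. The pluripotency markers that fell at day 4 were all named beside Nanog. Replicate numbers did not pair the arrays: deviations from group means correlated at -0.082 to 0.085 over 6 pairs of groups. The 4 workbook columns of group means were not used. Alternatives were other scalings, the workbook, fits without each array, a replicate block, fewer groups, a filter on dim genes, a variance trend and the median over probe sets.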

Additional observations from a re-analysis of the deposited data

Results flagged for a closer look

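The change from day 0 to day 4 differed between PML KD and WT for 6 of the 8 measured genes, by the test of the difference itself in limma. The change in PML KD minus that in WT was 1.11 for Dnmt3b, 0.96 for Dnmt3l, 0.99 for Uhrf1 and 0.67 for Dnmt1, and it was -0.80 for Tet1 and -0.98 for Tet2, all on the log2 scale. Under the scalings tried it was 0.44 to 1.30 for Dnmt3l and 0.35 to 1.01 for Dnmt1. Dnmt3l rose in PML KD and fell in WT, while Dnmt3b rose and Tet1 and Tet2 fell in both lines. All but the WT changes use the PML KD ESC arrays, whose Eif2s3y and Uty signals were far below those of the PML KD EB arrays. Of all genes 50.6% passed the same test, and the brightest 10% of genes had a median difference of 0.40. For Tet1 the difference was not shared by probe set 10369688, which gave -0.18 (adjusted p = 0.152).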

How the results depend on the processing

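Over 20 alternatives, the number of the 8 measured genes that passed ranged from 5 to 8 between the lines at day 0, 4 to 6 at day 4, 6 to 7 over time in WT, 4 to 6 over time in PML KD and 6 to 8 for the difference of changes. Leaving out each array gave 6 to 7, 4 to 6, 6 to 7, 4 to 5 and 6. With the replicate number as a block the counts were 6, 5, 7, 5 and 6, no call of the 8 genes changed, and the Pml call at day 4 was lost (adjusted p = 0.0614). Of 752 alternative values of the 8 genes, 688 kept direction and call. No difference of the 8 genes that passed changed sign in the alternatives run, except that of Dnmt3l given below at 0.00. Signs of small differences turned, the cause not tested. After quantile normalization these were Dnmt1 at day 0 (0.06), Dnmt3a over time in WT (0.03) and in the difference of changes (-0.13), and Tet1 at day 4 (-0.07). Quantile normalization over the tested genes gave 0.07, 0.09, -0.23 and -0.12 for the same values. The workbook after quantile normalization gave 0.11, 0.19 and -0.30 for the first 3, and 0.00 for Dnmt3l over time in PML KD. A median shift gave 0.09 for Dnmt3a and 0.03 for Uhrf1 over time in PML KD, and 0.00 for Tet3 at day 4. The median over probe sets gave 0.05 for Tet3 at day 0 and -0.13 in the difference of changes. Without each array Tet1 at day 4 ranged from -0.04 to 0.08 and Tet3 from -0.30 to 0.07. Tet3 at day 0 passed without WT EB replicate 1 or 2 (adjusted p = 0.0226), with dim genes left out (0.0435), with a variance trend (0.0233) and in a fit of the groups compared (0.0198). Of all genes that passed at day 0, 52.5% were higher, against 38.6% after quantile normalization and 21.5% after a median shift. The median shift moved this share from 58.8% to 80.2% at day 4, from 48.8% to 23% over time in WT, from 49.1% to 66.7% in PML KD and from 49.9% to 83.8% for the difference; quantile normalization gave 65.1% for the last. The 5705 genes that passed at day 4 became 3376 without PML KD EB replicate 1 and 3535 without replicate 2. Scaling over the tested genes and leaving out both PML KD ESC arrays were chosen after seeing the data. The workbook as deposited was not compared across days, and the difference of changes needs all groups.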

Other observations

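Of 13 measured genes of proteins that bind methylated or unmethylated CpGs, 3 rose and 4 fell in PML KD ESCs and 1 rose and 6 fell in PML KD EBs, with medians of -0.07 and -0.06. Of all genes 27.5% rose and 24.9% fell at day 0, and 16.8% and 11.8% at day 4. After a median shift 3 rose and 8 fell at day 0, and 2 rose and 2 fell at day 4, where the falls of Zbtb4, Kdm2a, Kmt2a and Kmt2b did not pass. Zbtb33, which encodes the methyl-CpG binder Kaiso, fell by 1.30 ± 0.13 at day 0 (adjusted p = 9.37e-05), and Cxxc1, which binds unmethylated CpGs, fell by 0.82 ± 0.09. The histone methyltransferase gene Kmt2a rose by 0.77 ± 0.08 at day 0. In EBs the methyl-CpG binder gene Mbd2 fell by 0.36 ± 0.07 and Mbd6 by 0.53 ± 0.08, and Zfp217 rose by 0.45 ± 0.08.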
